A study of Mus musculus with 6 samples.

Results

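The genes described here build, regulate and anchor the contractile actin cytoskeleton of fibroblasts and myofibroblasts. They are 37 named mouse genes, a fixed list of actins, actin-binding and thin filament proteins, myosins, intermediate filament proteins, focal adhesion and LIM domain proteins, and 2 transcription factors. The members were chosen by name and not by their values, and all 37 were found among the 57180 gene identifiers of the count table. In all, 36 of the 37 had enough reads to enter the tests, and Actn2 (sarcomeric alpha-actinin) did not.

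RNA with poly(A) tails was sequenced from cultured mouse fibroblasts of 3 origins, the heart (cardiac), the lung and the tail tip. Each culture was given an adenovirus carrying Cre recombinase (Ad-Cre, which the labels call a GATA4 knockout) or green fluorescent protein (Ad-GFP, the control) and was harvested 48 h later. The medium contained serum. The 6 groups are cardiac Ad-Cre, lung Ad-Cre, tail tip Ad-Cre, cardiac Ad-GFP, lung Ad-GFP and tail tip Ad-GFP, with 1 library each. The labels give the genotype of every library as wild type. They name no floxed allele, strain, age or number of animals, so nothing in them says that Cre had a site to act on. The promoter that drives Cre is not named either.

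In fibroblasts, actin filaments and non-muscle myosin form stress fibres that end in focal adhesions, and the cell uses them to pull on its surroundings. A myofibroblast is a fibroblast that has added smooth muscle actin (Acta2) to these fibres, as in a healing wound or a scar. Many of the genes involved are switched on by serum response factor (SRF), which binds a DNA element called the CArG box. Its partners are the MRTF proteins, which enter the nucleus when free actin monomer falls, and myocardin, which is restricted to heart and smooth muscle.

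Depth was similar among libraries, with total counts from 26170316 (lung Ad-Cre) to 33779069 (cardiac Ad-GFP). Levels are given as CPM, a gene's share of the reads of a library (counts per megaread, scaled with TMM factors, trimmed means of M values), and as RPKM, the same value divided by the gene's exon length in kilobases. Gata4 RNA was not lower in the libraries labelled Ad-Cre: it was at 149 CPM with Ad-Cre and 147 CPM with Ad-GFP in cardiac fibroblasts, and at 19.2 CPM with Ad-Cre and 14.7 CPM with Ad-GFP in lung fibroblasts, while the tail tip libraries held 2 reads with Ad-Cre and 1 with Ad-GFP. All 8 fibroblast markers examined had reads in every library, but their levels differed between origins. Lum had 1.11 CPM with Ad-Cre and 2.89 CPM with Ad-GFP in cardiac, and 160 CPM with Ad-Cre and 172 CPM with Ad-GFP in tail tip fibroblasts. Col1a1 had 1620 CPM with Ad-Cre and 1082 CPM with Ad-GFP in lung, and 6574 CPM with Ad-Cre and 7213 CPM with Ad-GFP in tail tip fibroblasts. Ddr2 ran only from 343 CPM (lung Ad-Cre) to 506 CPM (cardiac Ad-Cre). Markers of other cell types differed between origins too. The summed level of 14 macrophage and leukocyte genes was 4612 CPM with Ad-Cre and 5431 CPM with Ad-GFP in tail tip, 650 CPM with Ad-Cre and 1081 CPM with Ad-GFP in cardiac, and 20.5 CPM with Ad-Cre and 30.0 CPM with Ad-GFP in lung fibroblasts. The summed level of 8 pericyte genes was 412 CPM with Ad-Cre and 401 CPM with Ad-GFP in cardiac, 38.3 CPM with Ad-Cre and 38.1 CPM with Ad-GFP in lung, and 177 CPM with Ad-Cre and 172 CPM with Ad-GFP in tail tip fibroblasts. Mcam, Cspg4 and Notch3 led this sum in the cardiac libraries. Notch3 was at 1.21 CPM with Ad-Cre and 0.996 CPM with Ad-GFP in lung, and Mcam at 1.21 CPM with Ad-Cre and 0.912 CPM with Ad-GFP in tail tip fibroblasts. The summed level of 14 cardiomyocyte genes was 64.7 CPM with Ad-Cre and 86.8 CPM with Ad-GFP in cardiac, 41.2 CPM with Ad-Cre and 32.8 CPM with Ad-GFP in lung, and 7.92 CPM with Ad-Cre and 8.53 CPM with Ad-GFP in tail tip fibroblasts. Most of it in the cardiac and lung libraries was Tnnt2, cardiac troponin T, at 51.7 CPM with Ad-Cre and 75.1 CPM with Ad-GFP in cardiac cells and 34.7 CPM with Ad-Cre and 26.2 CPM with Ad-GFP in lung cells. Of these 14 genes, 3 had 0 reads in the cardiac Ad-Cre library and 5 in the cardiac Ad-GFP library. The summed level of 14 skeletal muscle genes was 12.2 CPM with Ad-Cre and 7.13 CPM with Ad-GFP in cardiac fibroblasts. In lung fibroblasts it was 8.58 CPM with Ad-Cre and 6.14 CPM with Ad-GFP. In tail tip fibroblasts it was 2.96 CPM with Ad-Cre and 2.77 CPM with Ad-GFP. Of these skeletal muscle genes, Myf5 and Tnnc2 had 0 reads in all 6 libraries. The part of other cell types in the differences below was not tested. In bulk RNA, fewer cells of a type and less RNA per cell cannot be told apart.

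**Figure D1:**
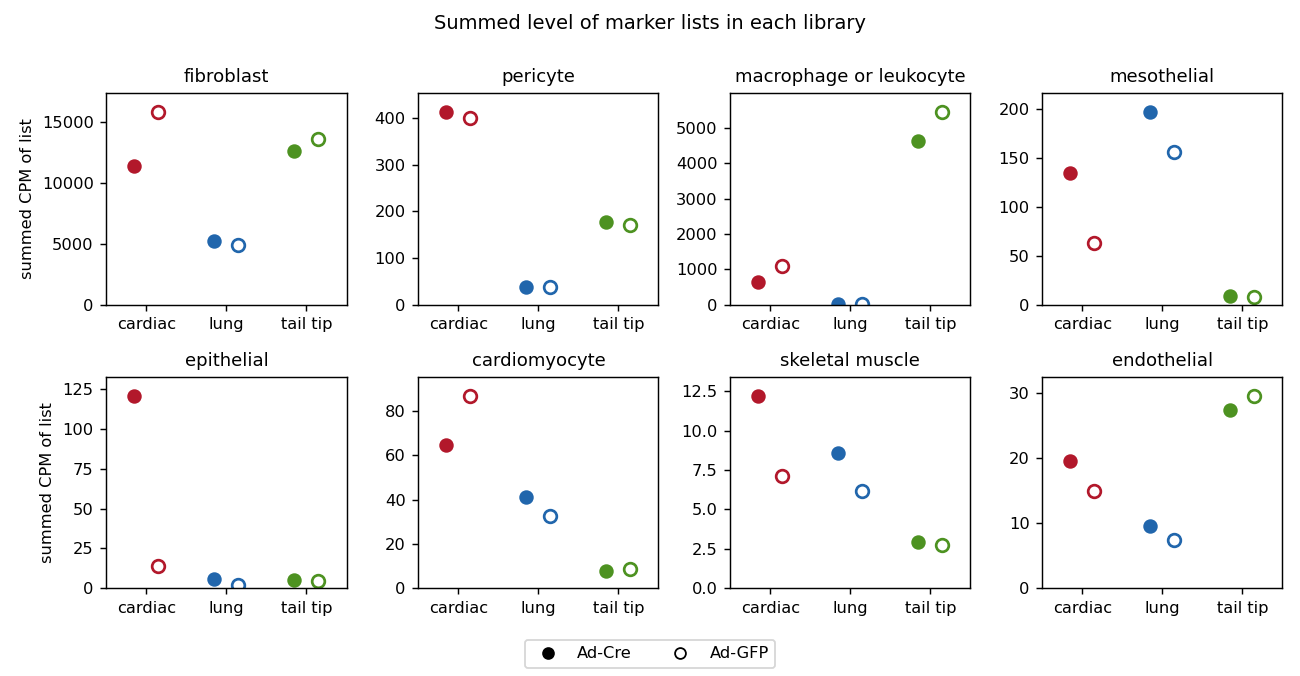
Summed level (CPM, each panel on its own linear axis from 0) of the markers of 8 cell types in each of the 6 libraries, Ad-Cre filled and Ad-GFP open, coloured by origin. Macrophage and leukocyte genes span from 20.5 CPM in the lung Ad-Cre library to 5431 CPM in the tail tip Ad-GFP library, and the epithelial genes of the cardiac pair stand at 120 CPM with Ad-Cre and 14.2 CPM with Ad-GFP.

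The promoter sequences of the members are shown first because the CArG box, a run of A and T between CC and GG, is the element through which SRF is known to act on this family. The RefSeq promoter table for mouse (build GRCm38.p6) held 32 of the 37 members in 36 windows of 250 bases before a start site. Tagln, Actg2, Myh11, Csrp2 and Myocd had no window there and were not searched. A CArG box, which reads alike on either strand, lay in 7 of these 36 windows (19.4%), against 482 of 32851 windows of all genes (1.47%). The 7 members were Actc1, Myl9, Acta1, Cnn2, Myl6, Vcl and Srf. Srf itself had 2 boxes, which only 6 of all the windows (0.0183%) had. Each box is given in capitals within 60 bases, written 5′ to 3′ on the gene's strand.
Actc1, chr2:114052888-114052947, minus strand: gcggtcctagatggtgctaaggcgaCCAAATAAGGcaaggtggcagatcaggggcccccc
Myl9, chr2:156775278-156775337, plus strand: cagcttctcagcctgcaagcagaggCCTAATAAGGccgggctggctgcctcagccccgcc
Acta1, chr8:123894814-123894873, minus strand: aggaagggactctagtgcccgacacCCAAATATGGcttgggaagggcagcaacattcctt
Cnn2, chr10:79988519-79988578, plus strand: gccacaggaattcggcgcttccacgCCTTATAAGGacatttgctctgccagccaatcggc
Myl6, chr10:128493025-128493084, minus strand: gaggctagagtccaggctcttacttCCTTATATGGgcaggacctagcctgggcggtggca
Vcl, chr14:20929148-20929207, plus strand: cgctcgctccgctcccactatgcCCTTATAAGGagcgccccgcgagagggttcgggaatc
Srf, chr17:46556200-46556259, minus strand: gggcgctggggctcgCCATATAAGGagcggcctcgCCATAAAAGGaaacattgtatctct
Near-boxes, in which 1 letter of the core is G or C, are far more common. With these counted too, 9 of the 36 windows held a match, against 8.59% of all windows. The 2 members added were Acta2, with near-boxes beginning 84 and 34 bases before the start, and Pdlim3, with one 100 bases before it.
Pdlim3, chr8:45885362-45885421, plus strand: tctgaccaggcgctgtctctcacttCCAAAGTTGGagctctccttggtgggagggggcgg
Acta2, chr19:34255398-34255457, minus strand: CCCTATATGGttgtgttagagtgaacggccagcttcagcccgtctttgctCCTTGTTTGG
A match of letters is not a measured binding site, and boxes farther from the start or inside the gene were not searched. The members with a box did not share 1 pattern over the origins: both libraries of 1 origin lay above the other 4 for 2 of the 7 in cardiac (Actc1 and Myl9), for 3 in lung (Cnn2, Myl6 and Srf), for 1 in tail tip fibroblasts (Acta1) and for 1 in none (Vcl). Over all genes tested, 13.2% had both cardiac libraries above the other 4, 26.1% both lung libraries and 28.3% both tail tip libraries.

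Together the 37 genes took between 2.05% (tail tip Ad-GFP) and 2.98% (cardiac Ad-GFP) of all reads. Vim, Flna and Myh9 had the most reads in every library. Per length, 15 members averaged at least 100 RPKM over the 6 libraries, and 6 were under 1 RPKM. The highest were Vim, the intermediate filament protein of mesenchymal cells, at a mean of 893 RPKM, Acta2 at 635 RPKM, Tpm4, a tropomyosin of non-muscle cells, at 419 RPKM and Flna, which cross-links actin filaments, at 328 RPKM. The lowest were genes of striated and fully differentiated smooth muscle, with Myh11 at 0.516, Actc1 at 0.351, Synpo2 at 0.312, Myocd at 0.30, Pdlim3 at 0.150 and Actn2 at 0.0326 RPKM. These lengths count the exons of all transcripts of a gene, so a gene with long alternative exons reads low.

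Tagln, the usual companion of Acta2 among smooth muscle markers, is uncertain in these counts. It had 12.6 CPM with Ad-Cre and 22.3 CPM with Ad-GFP in cardiac fibroblasts, 2.73 CPM with Ad-Cre and 2.37 CPM with Ad-GFP in lung fibroblasts, and 4.83 CPM with Ad-Cre and 5.35 CPM with Ad-GFP in tail tip fibroblasts. Of its exon bases, 67.9% are shared with genes on the opposite strand (Pcsk7 and Gm48529) in the GRCm38 annotation, and whether reads were counted by strand is not given in the sources used here. Overlaps were smaller for Vcl (25.5%), Cnn3 (17.7%) and Smtn (16.3%), and were 10% or less for the other members. The muscle actins are close relatives, and runs of 50 bases shared with another gene made up at most 2.02% of any of their exon sequences. Such runs made up 58.3% for Tagln, 25.1% for Vcl, 24.0% for Cnn3 and 15.7% for Tpm4 (shared with Gm7809 and Gm26586). For the other members they made up 9.46% or less.

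**Figure D2:**
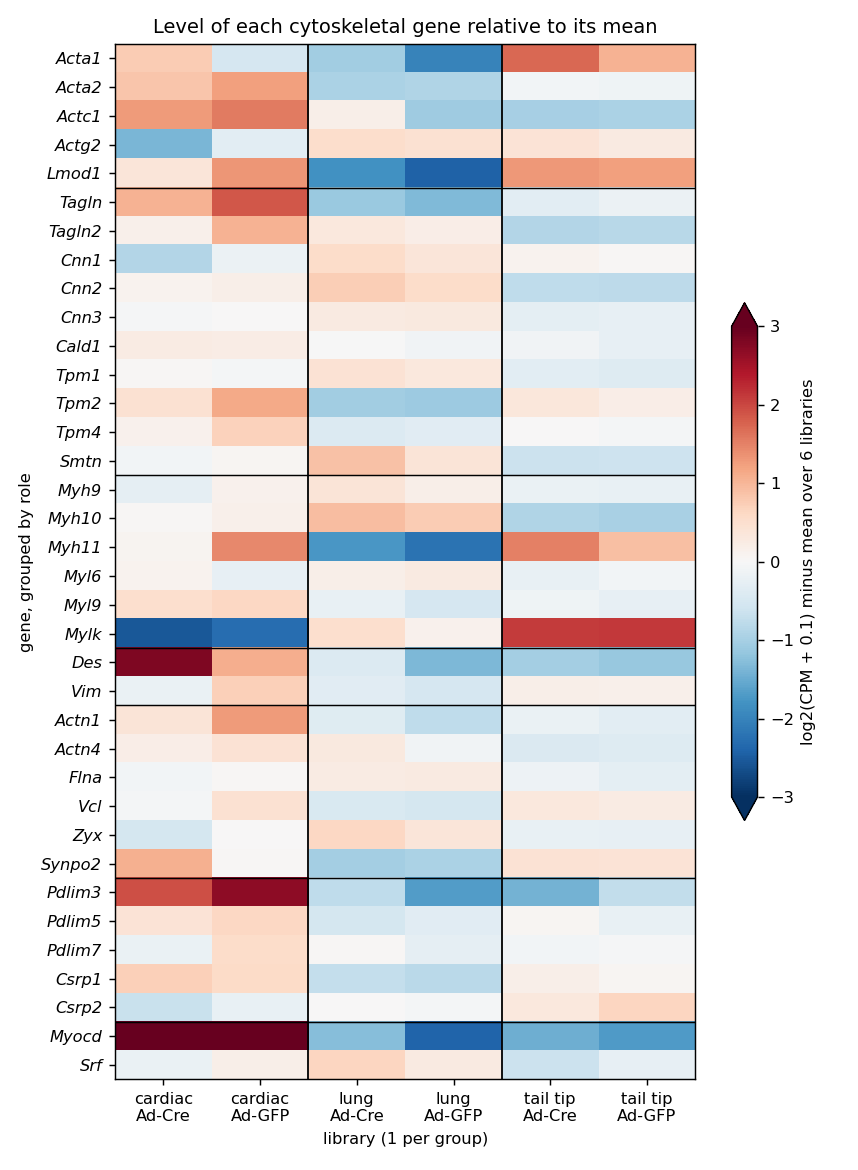
Level of each of the 36 members tested in the 6 libraries, as log2 of CPM plus a pseudocount of 0.1 minus the gene's mean over the libraries, with members ordered by role and colours ending at 3 either side of 0. Rows such as Myocd, Pdlim3 and Des are high in the cardiac libraries, Mylk is low there, and Lmod1 and Myh11 are low in lung.

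Between cardiac and lung fibroblasts, 16 of the 36 members tested were higher in cardiac cells, against 20.8% of the 18143 genes tested, and 7 were lower, against 17.6% of all genes. The calls are from an edgeR quasi-likelihood test at a Benjamini-Hochberg adjusted p under 0.05 over all genes. Log2 differences are given with their standard error, and a call is one that passed this test. The members' median log2 difference was 0.53, against -0.01 for all genes. The higher ones spanned actins, tropomyosins, LIM domain proteins and myocardin. The lower ones were Actg2, Cnn1, Cnn2, Smtn, Myh10, Mylk and Zyx. The number lower was 12 without the cardiac Ad-GFP library and 4 without the lung Ad-Cre library.

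Between cardiac and tail tip fibroblasts, 15 members were higher in cardiac cells, against 15.5% of all genes, and 4 were lower, against 18.0%. The members' median was 0.42, against -0.06 for all genes. The 4 lower members were Acta1, Actg2, Mylk and Csrp2. The number higher was 23 without the cardiac Ad-Cre library and 7 without either tail tip library. The number lower was 10 without the cardiac Ad-GFP library and 2 without either tail tip library.

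Between lung and tail tip fibroblasts, 9 members were higher in lung cells, against 22.3% of all genes, and 11 were lower, against 28.2%. The members' median was -0.09, against -0.06 for all genes. In either direction, 55.6% of the members tested were called here, against 50.6% of all genes, so the share was near the background. The number higher was 5 without the lung Ad-Cre or the tail tip Ad-GFP library and 4 without the tail tip Ad-Cre library, and the number lower was 7 without the tail tip Ad-Cre library. These 3 comparisons share libraries, 2 per origin, and the spread comes from the difference between viruses within an origin. Myocd, Pdlim3 and Actc1 passed the read filter mainly through the cardiac libraries, so the filter itself favoured a higher cardiac level for them. These counts describe the 36 tested, not the whole list. Without those 3, 14 of 33 members were higher and 7 lower in cardiac than in lung, and 12 higher and 4 lower in cardiac than in tail tip. Cald1, Myh9, Myl6, Vim and Pdlim7 were called in none of the 3 comparisons.

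**Figure D3:**
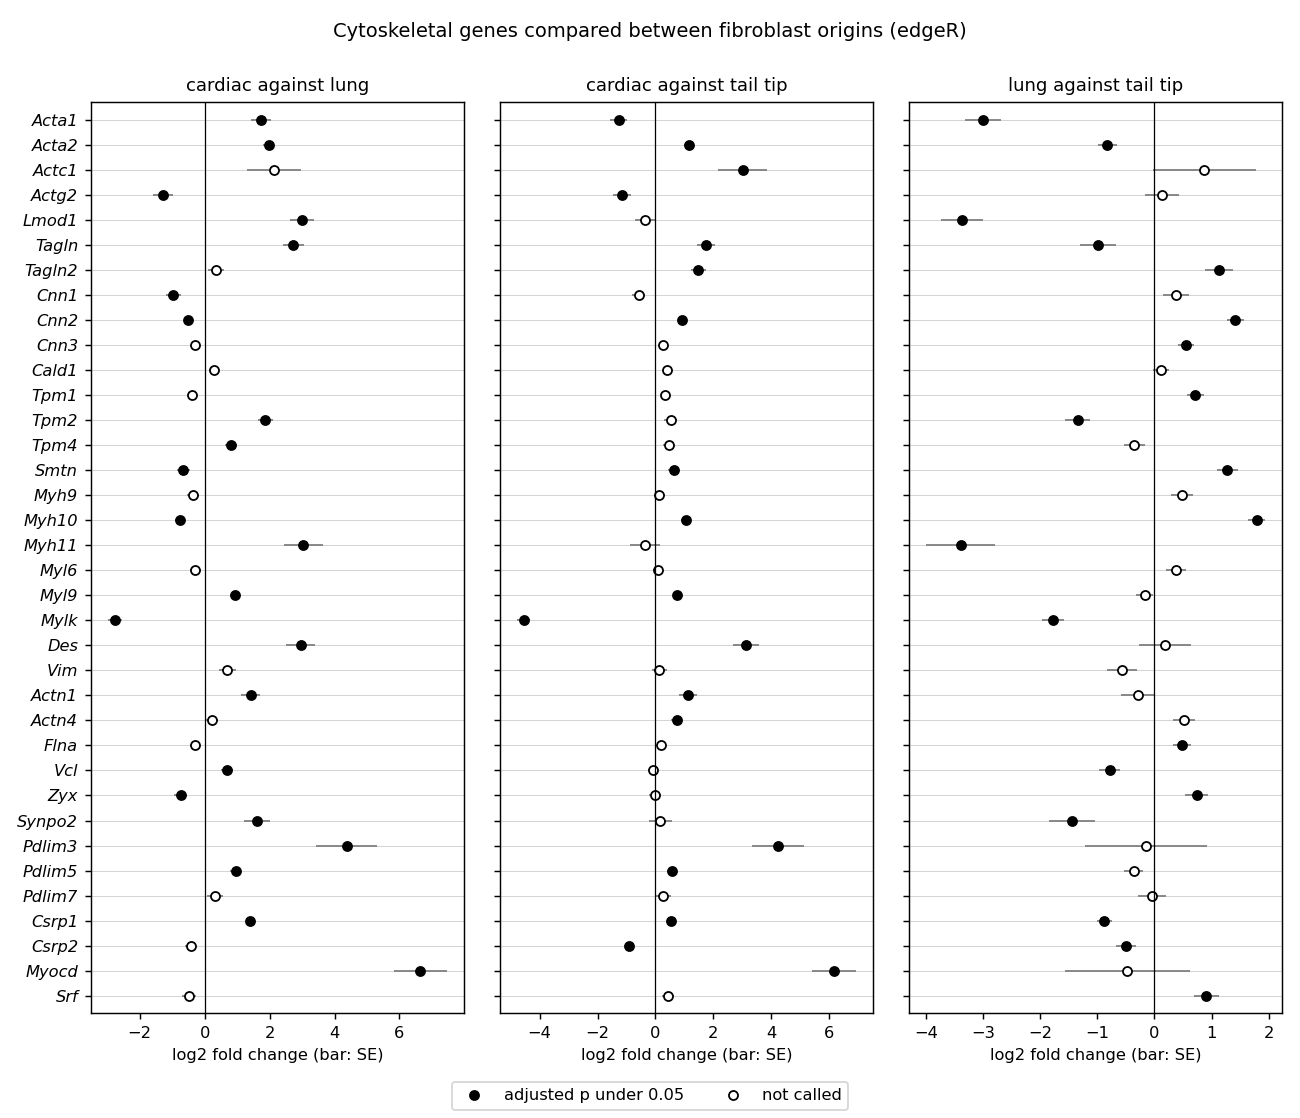
Log2 difference and its standard error for every tested member in the 3 comparisons between origins, filled where the adjusted p is under 0.05. Of the 36 members, 16 are called higher and 7 lower in cardiac than in lung, 15 higher and 4 lower in cardiac than in tail tip, and 9 higher and 11 lower in lung than in tail tip fibroblasts.

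The smooth muscle actin Acta2 was highest in cardiac fibroblasts. It had 2118 CPM with Ad-Cre and 2797 CPM with Ad-GFP in cardiac fibroblasts, 612 CPM with Ad-Cre and 632 CPM with Ad-GFP in lung fibroblasts, and 1119 CPM with Ad-Cre and 1082 CPM with Ad-GFP in tail tip fibroblasts. The pairs did not overlap, with cardiac above tail tip and tail tip above lung. Acta2 was 3.93-fold higher in cardiac than in lung (log2 1.97 ± 0.17, adjusted p = 0.00023), 2.22-fold higher in cardiac than in tail tip (log2 1.15 ± 0.17, adjusted p = 0.00245) and lower in lung than in tail tip (log2 -0.83 ± 0.17, adjusted p = 0.00562). The last call was lost without the tail tip Ad-Cre library (adjusted p = 0.126). Per length, Acta2 made up 90.8% to 98.7% of the summed RPKM of the 4 muscle actins in each library.

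The other muscle actins followed different orders. Acta1, skeletal muscle alpha-actin, had 7.11 CPM with Ad-Cre and 2.89 CPM with Ad-GFP in cardiac fibroblasts, 1.95 CPM with Ad-Cre and 0.961 CPM with Ad-GFP in lung fibroblasts, and 13.9 CPM with Ad-Cre and 8.68 CPM with Ad-GFP in tail tip fibroblasts. The level was higher in cardiac than in lung (log2 1.74 ± 0.31, adjusted p = 0.00503) and lower in lung than in tail tip (log2 -3.0 ± 0.32, adjusted p = 0.000261). It was also lower in cardiac than in tail tip (log2 -1.27 ± 0.29, adjusted p = 0.0145), a call lost without the tail tip Ad-Cre library (adjusted p = 0.0762), without the tail tip Ad-GFP library (0.232) and in a model without the virus term (0.106). Actg2, the gamma actin of enteric smooth muscle, ran against Acta2 in cardiac cells: it had 11.0 CPM with Ad-Cre and 23.2 CPM with Ad-GFP in cardiac fibroblasts, 41.3 CPM with Ad-Cre and 39.2 CPM with Ad-GFP in lung fibroblasts, and 38.3 CPM with Ad-Cre and 34.8 CPM with Ad-GFP in tail tip fibroblasts. It was lower in cardiac than in lung (log2 -1.28 ± 0.30, adjusted p = 0.0152) and than in tail tip (log2 -1.15 ± 0.30, adjusted p = 0.0253), while lung and tail tip were not called different (log2 0.13 ± 0.29, adjusted p = 0.729). Without the cardiac Ad-GFP library these differences were -1.96 against lung and -1.83 against tail tip, and without the tail tip Ad-Cre library the call against tail tip was lost (adjusted p = 0.0655).

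Actc1, cardiac muscle alpha-actin, was low in every library, between 0.137 CPM (lung Ad-GFP) and 1.38 CPM (cardiac Ad-GFP). Over both libraries of an origin its ratio was 8.13 for cardiac over tail tip (95% counting interval 4.20 to 17.6) and 4.29 for cardiac over lung (2.48 to 7.87). No test is given, because it entered the tests mainly through the cardiac libraries. Lmod1, leiomodin, which starts new actin filaments in smooth muscle, was low in lung cells alone. It had 26.03 CPM with Ad-Cre and 51.2 CPM with Ad-GFP in cardiac fibroblasts, 5.69 CPM with Ad-Cre and 3.71 CPM with Ad-GFP in lung fibroblasts, and 50.1 CPM with Ad-Cre and 47.5 CPM with Ad-GFP in tail tip fibroblasts. It was 8.05-fold higher in cardiac than in lung (log2 3.01 ± 0.37, adjusted p = 0.00101) and 10.3-fold lower in lung than in tail tip (log2 -3.37 ± 0.37, adjusted p = 0.00031). Its cardiac and lung values depend on single libraries: the cardiac over lung log2 difference was 3.61 without the cardiac Ad-Cre library and 2.31 without the cardiac Ad-GFP library, and the lung over tail tip one was -3.97 without the lung Ad-Cre library.

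**Figure D4:**
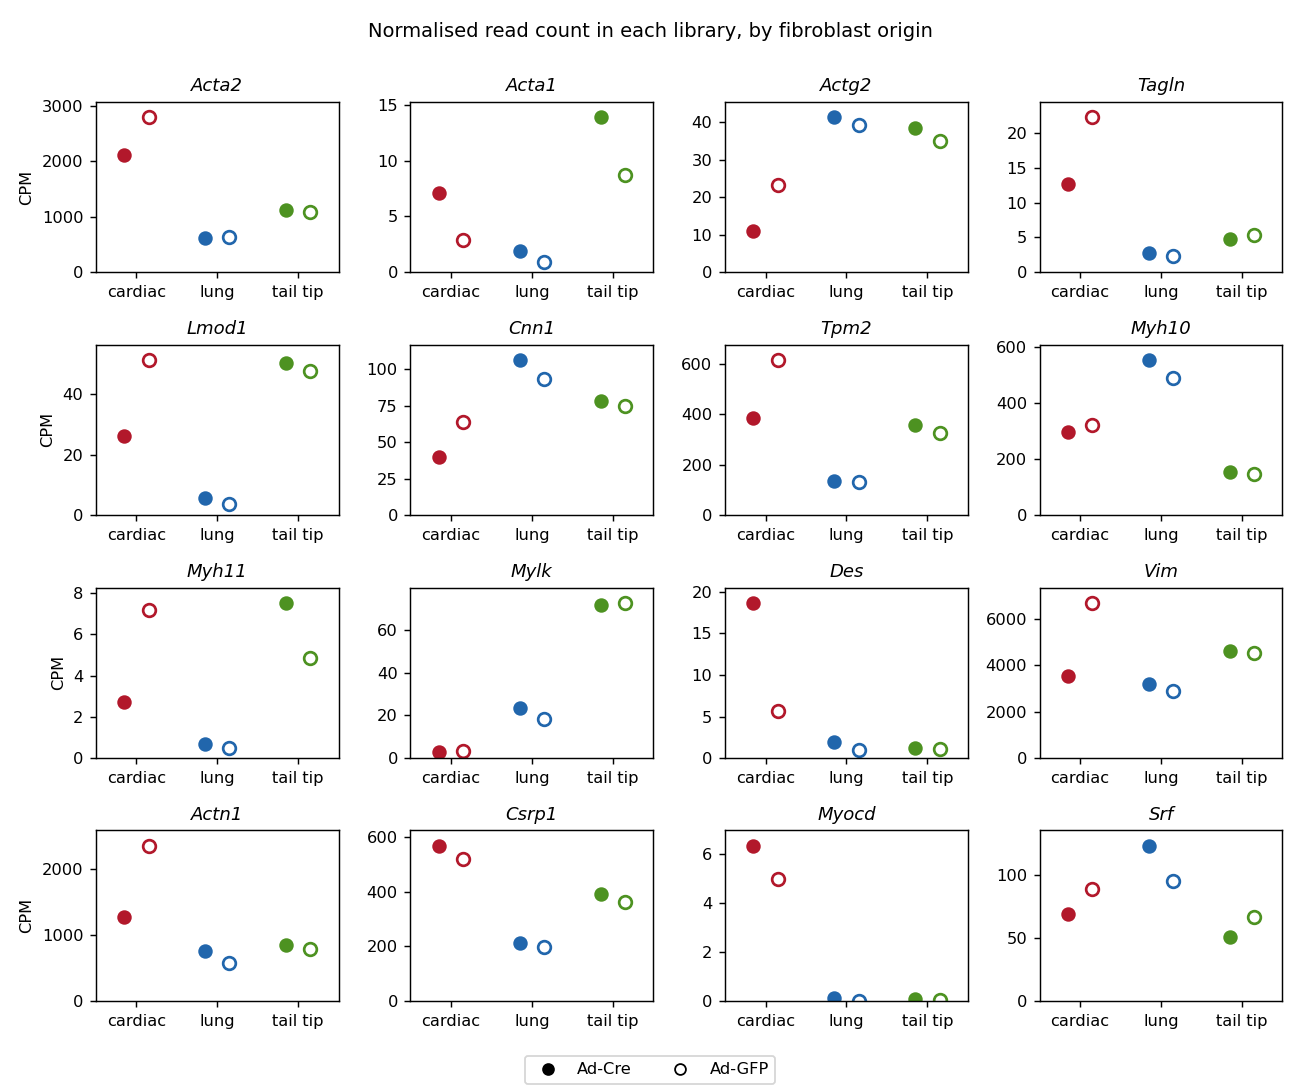
Level (CPM, each panel on its own linear axis from 0) of 16 members in each library, Ad-Cre filled and Ad-GFP open, by origin. Acta2 is at 2118 and 2797 CPM in the cardiac Ad-Cre and Ad-GFP libraries and at 632 CPM or lower in both lung libraries, whereas Mylk is at 3.32 CPM or lower in both cardiac libraries and at 71.6 CPM or higher in both tail tip libraries.

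The thin filament regulators, which sit along actin and set how myosin reaches it, differed in both directions. Of 10 tested, 3 were higher and 3 lower in cardiac than in lung cells, against 20.8% and 17.6% of all genes. In cardiac against tail tip cells 4 were higher and none lower, against 15.5% and 18.0%, and in lung against tail tip cells 5 were higher and 2 lower, against 22.3% and 28.2%. Tagln was called higher in cardiac than in lung (log2 2.73 ± 0.32, adjusted p = 0.000834) and than in tail tip (log2 1.74 ± 0.30, adjusted p = 0.00487), subject to the overlap above. Its lung against tail tip difference (log2 -0.99 ± 0.31, adjusted p = 0.0342) was lost without the lung Ad-GFP (adjusted p = 0.256), the tail tip Ad-Cre (0.193) or the tail tip Ad-GFP library (0.0727). Tagln2, its non-muscle relative, was higher than in tail tip both in cardiac (log2 1.48 ± 0.25, adjusted p = 0.00416) and in lung cells (log2 1.12 ± 0.25, adjusted p = 0.00743).

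The calponins, which bind actin and slow its myosin, all had their highest level in lung cells. Cnn1, the smooth muscle form, had 39.7 CPM with Ad-Cre and 63.9 CPM with Ad-GFP in cardiac fibroblasts, 106 CPM with Ad-Cre and 93.0 CPM with Ad-GFP in lung fibroblasts, and 78.3 CPM with Ad-Cre and 74.6 CPM with Ad-GFP in tail tip fibroblasts. Both lung libraries lay above the other 4, and both cardiac libraries below them. Cnn1 was lower in cardiac than in lung (log2 -0.96 ± 0.23, adjusted p = 0.0154) and was not called in cardiac against tail tip (log2 -0.58 ± 0.23, adjusted p = 0.0904). Cnn2, the broadly expressed form, was 2.67-fold higher in lung than in tail tip (log2 1.42 ± 0.15, adjusted p = 0.000266), and Cnn3 was 1.47-fold higher (log2 0.55 ± 0.14, adjusted p = 0.0122). The Cnn3 call was lost without any 1 of the 4 lung and tail tip libraries, with adjusted p between 0.0508 and 0.247. Cnn2 was also lower in cardiac than in lung (log2 -0.50 ± 0.15, adjusted p = 0.0337), a call lost without the lung Ad-Cre (adjusted p = 0.202), the tail tip Ad-Cre (0.11) or the tail tip Ad-GFP library (0.109). It was higher in cardiac than in tail tip (log2 0.92 ± 0.15, adjusted p = 0.00362), and this call was lost without the tail tip Ad-Cre (0.0659) or Ad-GFP library (0.0625). Smtn, smoothelin, followed the same order, higher in lung than in tail tip (log2 1.28 ± 0.19, adjusted p = 0.00124) and lower in cardiac than in lung (log2 -0.65 ± 0.19, adjusted p = 0.0305). The difference from lung was lost without the lung Ad-Cre library (adjusted p = 0.244). Its cardiac against tail tip call (log2 0.63 ± 0.19, adjusted p = 0.0386) was lost without the cardiac Ad-GFP (0.0578), the tail tip Ad-Cre (0.39) or the tail tip Ad-GFP library (0.188).

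The tropomyosins, which wind along the filament, went opposite ways. Tpm2 had 384 CPM with Ad-Cre and 614 CPM with Ad-GFP in cardiac fibroblasts, 136 CPM with Ad-Cre and 133 CPM with Ad-GFP in lung fibroblasts, and 358 CPM with Ad-Cre and 324 CPM with Ad-GFP in tail tip fibroblasts. It was 3.66-fold higher in cardiac than in lung (log2 1.87 ± 0.22, adjusted p = 0.000886) and 2.54-fold lower in lung than in tail tip (log2 -1.35 ± 0.22, adjusted p = 0.00195). Tpm4 was higher in cardiac than in lung (log2 0.81 ± 0.19, adjusted p = 0.0142), a call lost without the lung Ad-GFP library (adjusted p = 0.061). Tpm1 was instead higher in lung than in tail tip (log2 0.72 ± 0.14, adjusted p = 0.00507), with 1856 CPM with Ad-Cre and 1713 CPM with Ad-GFP in lung, against 1114 CPM with Ad-Cre and 1057 CPM with Ad-GFP in tail tip fibroblasts. That call was lost without the tail tip Ad-Cre (0.127) or Ad-GFP library (0.115). Cald1, caldesmon, ran only from 1713 CPM (tail tip Ad-GFP) to 2400 CPM (cardiac Ad-Cre) and was not called.

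The myosins and the kinase that activates them differed in opposite directions. Mylk, myosin light chain kinase, had 2.78 CPM with Ad-Cre and 3.32 CPM with Ad-GFP in cardiac fibroblasts, 23.6 CPM with Ad-Cre and 18.3 CPM with Ad-GFP in lung fibroblasts, and 71.6 CPM with Ad-Cre and 72.5 CPM with Ad-GFP in tail tip fibroblasts. The pairs were far apart, with tail tip highest and cardiac lowest. It was 6.83-fold lower in cardiac than in lung (log2 -2.77 ± 0.21, adjusted p = 0.000127), 23.5-fold lower in cardiac than in tail tip (log2 -4.56 ± 0.22, adjusted p = 2.76e-05) and 3.45-fold lower in lung than in tail tip (log2 -1.79 ± 0.19, adjusted p = 0.000293). Each of these calls held under every alternative run, with log2 values between -4.82 and -4.35 for cardiac against tail tip. Cardiac fibroblasts had the highest Acta2 and the lowest Mylk of the 3 origins. Myl9, a light chain that the kinase acts on, was highest in cardiac cells, at 246 CPM with Ad-Cre and 264 CPM with Ad-GFP. It was higher there than in lung (log2 0.93 ± 0.15, adjusted p = 0.00355) and than in tail tip (log2 0.76 ± 0.15, adjusted p = 0.00917). The second of these calls was lost without the tail tip Ad-Cre (adjusted p = 0.129) or Ad-GFP library (0.17). Myl6, the other light chain among the members, ran from 536 CPM (cardiac Ad-GFP) to 760 CPM (lung Ad-GFP) and was not called. Myl12a, a light chain gene that is not a member, was not called in cardiac against lung (log2 -0.261 ± 0.205, adjusted p = 0.35). It was higher in cardiac than in tail tip (log2 0.98 ± 0.207, adjusted p = 0.0108).

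Of the heavy chains, Myh9, non-muscle myosin IIA, was the most abundant and was called in no comparison, with 2410 CPM in the cardiac Ad-Cre library at the low end and 3821 CPM in the lung Ad-Cre library at the high end. Myh10, non-muscle myosin IIB, separated all 3 origins. It had 296 CPM with Ad-Cre and 324 CPM with Ad-GFP in cardiac fibroblasts, 555 CPM with Ad-Cre and 492 CPM with Ad-GFP in lung fibroblasts, and 155 CPM with Ad-Cre and 147 CPM with Ad-GFP in tail tip fibroblasts. It was lower in cardiac than in lung (log2 -0.75 ± 0.15, adjusted p = 0.00731), higher in cardiac than in tail tip (log2 1.04 ± 0.15, adjusted p = 0.00208) and 3.47-fold higher in lung than in tail tip (log2 1.79 ± 0.15, adjusted p = 9.58e-05). Myh11, the smooth muscle heavy chain and the marker most specific to that tissue, was under 8 CPM in every library: it had 2.75 CPM with Ad-Cre and 7.19 CPM with Ad-GFP in cardiac fibroblasts, 0.702 CPM with Ad-Cre and 0.481 CPM with Ad-GFP in lung fibroblasts, and 7.52 CPM with Ad-Cre and 4.88 CPM with Ad-GFP in tail tip fibroblasts. Cardiac cells had more Myh11 than lung cells (log2 3.04 ± 0.60, adjusted p = 0.00765), and lung cells had less than tail tip cells (log2 -3.40 ± 0.60, adjusted p = 0.00282). The cardiac libraries differed, with an Ad-Cre over Ad-GFP ratio of 0.382, and the cardiac over lung log2 difference was 3.93 without the cardiac Ad-Cre library and 1.90 without the cardiac Ad-GFP library. Without the tail tip Ad-Cre library the lung over tail tip difference was -2.71.

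The 2 intermediate filament genes behaved unlike each other. Des, desmin, the intermediate filament protein of muscle, had 18.7 CPM with Ad-Cre and 5.69 CPM with Ad-GFP in cardiac fibroblasts, 1.95 CPM with Ad-Cre and 0.961 CPM with Ad-GFP in lung fibroblasts, and 1.24 CPM with Ad-Cre and 1.13 CPM with Ad-GFP in tail tip fibroblasts. Both cardiac libraries lay above the other 4. Des was 7.75-fold higher in cardiac than in lung (log2 2.95 ± 0.44, adjusted p = 0.00223) and 8.81-fold higher in cardiac than in tail tip (log2 3.14 ± 0.45, adjusted p = 0.00199). The log2 difference from lung was 2.31 without the cardiac Ad-Cre library, and that from tail tip was 2.46 without the tail tip Ad-Cre and 3.73 without the tail tip Ad-GFP library. Vim had 3553 CPM with Ad-Cre and 6667 CPM with Ad-GFP in cardiac fibroblasts, 3210 CPM with Ad-Cre and 2885 CPM with Ad-GFP in lung fibroblasts, and 4598 CPM with Ad-Cre and 4501 CPM with Ad-GFP in tail tip fibroblasts. Its cardiac libraries lay on both sides of the tail tip pair, and no comparison between origins was called for it (log2 0.70 ± 0.27, adjusted p = 0.0762 for cardiac against lung).

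Among cross-linkers and adhesion plaque proteins, the non-muscle alpha-actinin Actn1 was highest in cardiac cells. It had 1272 CPM with Ad-Cre and 2353 CPM with Ad-GFP in cardiac fibroblasts, 758 CPM with Ad-Cre and 574 CPM with Ad-GFP in lung fibroblasts, and 848 CPM with Ad-Cre and 789 CPM with Ad-GFP in tail tip fibroblasts. Actn1 was higher in cardiac than in lung (log2 1.42 ± 0.30, adjusted p = 0.00956) and than in tail tip (log2 1.13 ± 0.29, adjusted p = 0.0247). Without the cardiac Ad-GFP library these log2 differences were 0.78 and 0.46, and without the tail tip Ad-GFP library the second call was lost (adjusted p = 0.0749). Actn4 was higher in cardiac than in tail tip (log2 0.74 ± 0.19, adjusted p = 0.0224), lost without the tail tip Ad-Cre (0.235) or Ad-GFP library (0.147). Actn2, the sarcomeric form, had 1 read with Ad-Cre and 20 with Ad-GFP in cardiac, 0 with Ad-Cre and 1 with Ad-GFP in lung, and 2 with Ad-Cre and 0 with Ad-GFP in tail tip fibroblasts. A count of 0 allows up to 3 reads, which is 0.117 CPM in the lung Ad-Cre and 0.0944 CPM in the tail tip Ad-GFP library.

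Zyx and Vcl, both found in focal adhesions, went opposite ways in lung cells. Zyx, zyxin, had 306 CPM with Ad-Cre and 447 CPM with Ad-GFP in cardiac fibroblasts, 676 CPM with Ad-Cre and 570.2 CPM with Ad-GFP in lung fibroblasts, and 376 CPM with Ad-Cre and 373 CPM with Ad-GFP in tail tip fibroblasts. It was lower in cardiac than in lung (log2 -0.74 ± 0.21, adjusted p = 0.0279) and higher in lung than in tail tip (log2 0.74 ± 0.21, adjusted p = 0.0207). Both calls were lost without the lung Ad-Cre library (adjusted p = 0.122 and 0.157), and the second also without the tail tip Ad-Cre (0.0603) or Ad-GFP library (0.14). Vcl, vinculin, had its lowest levels in lung, at 308 CPM with Ad-Cre and 296 CPM with Ad-GFP. Vcl was higher in cardiac than in lung (log2 0.70 ± 0.19, adjusted p = 0.023) and lower in lung than in tail tip (log2 -0.78 ± 0.19, adjusted p = 0.0106). The first call was lost without the cardiac Ad-GFP (0.0576) or lung Ad-GFP library (0.145), the second without the tail tip Ad-Cre library (0.157).

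Flna, filamin A, was 1.39-fold higher in lung than in tail tip (log2 0.48 ± 0.16, adjusted p = 0.0364), and this call was lost without any 1 of the 4 lung and tail tip libraries, with adjusted p between 0.119 and 0.521. Synpo2, a smooth and striated muscle partner of alpha-actinin and filamin, had 7.66 CPM with Ad-Cre and 3.66 CPM with Ad-GFP in cardiac fibroblasts, 1.72 CPM with Ad-Cre and 1.82 CPM with Ad-GFP in lung fibroblasts, and 4.86 CPM with Ad-Cre and 4.81 CPM with Ad-GFP in tail tip fibroblasts. Synpo2 was higher in cardiac than in lung (log2 1.61 ± 0.41, adjusted p = 0.0193) and lower in lung than in tail tip (log2 -1.45 ± 0.40, adjusted p = 0.0208). Both calls were lost without the lung Ad-Cre library (adjusted p = 0.128 and 0.12), and the second also without the tail tip Ad-GFP library (0.204).

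The LIM domain adaptors tie alpha-actinin and actin bundles to other proteins. Csrp1, a cysteine- and glycine-rich protein of smooth muscle and fibroblasts, had 567 CPM with Ad-Cre and 520.0 CPM with Ad-GFP in cardiac fibroblasts, 212 CPM with Ad-Cre and 198 CPM with Ad-GFP in lung fibroblasts, and 392 CPM with Ad-Cre and 363 CPM with Ad-GFP in tail tip fibroblasts. The order was cardiac, tail tip, lung without overlap. Csrp1 was higher in cardiac than in lung (log2 1.40 ± 0.14, adjusted p = 0.00038) and lower in lung than in tail tip (log2 -0.88 ± 0.14, adjusted p = 0.00161). Its smaller difference between cardiac and tail tip (log2 0.53 ± 0.14, adjusted p = 0.0238) was lost without the tail tip Ad-Cre (adjusted p = 0.399) or Ad-GFP library (0.411). Its paralog Csrp2 was lowest in cardiac cells, at 32.6 CPM with Ad-Cre and 44.7 CPM with Ad-GFP, against 64.9 CPM with Ad-Cre and 81.3 CPM with Ad-GFP in tail tip fibroblasts (log2 -0.93 ± 0.18, adjusted p = 0.00707). That call was lost without the tail tip Ad-GFP library (adjusted p = 0.0563). The Csrp2 difference between lung and tail tip (log2 -0.49 ± 0.17, adjusted p = 0.0498) was at the threshold and was lost under 6 of 14 alternatives, with adjusted p up to 0.447.

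Pdlim3, a PDZ and LIM protein of muscle Z-discs, was almost limited to cardiac cells. It had 1.54 CPM with Ad-Cre and 2.67 CPM with Ad-GFP in cardiac fibroblasts, 0.156 CPM with Ad-Cre and 0.0343 CPM with Ad-GFP in lung fibroblasts, and 0.0604 CPM with Ad-Cre and 0.157 CPM with Ad-GFP in tail tip fibroblasts. Over both libraries its ratio was 23.3 for cardiac over lung (95% counting interval 9.73 to 72.9) and 19.7 for cardiac over tail tip (9.30 to 49.9). These are given without a test, since its reads outside cardiac cells were too few for it to be tested but for the cardiac libraries. Pdlim5 was higher in cardiac than in lung (log2 0.95 ± 0.17, adjusted p = 0.00529) and than in tail tip (log2 0.59 ± 0.17, adjusted p = 0.0376), the second call being lost without the tail tip Ad-Cre (0.0895) or Ad-GFP library (0.658). Pdlim7 ran from 116 CPM (lung Ad-GFP) to 208 CPM (cardiac Ad-GFP) and was not called.

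Of the 2 transcription factors, myocardin had nearly all of its reads in cardiac cells. Myocd had 193 reads with Ad-Cre and 162 with Ad-GFP in cardiac fibroblasts (6.32 CPM with Ad-Cre and 4.98 CPM with Ad-GFP), against 3 with Ad-Cre and 0 with Ad-GFP in lung and 3 with Ad-Cre and 2 with Ad-GFP in tail tip fibroblasts. The ratio over both libraries was 103 for cardiac over lung (95% counting interval 34.9 to 501) and 73.0 for cardiac over tail tip (31.0 to 226). The ratio to lung rests on 3 lung reads, and no test is given for the same reason as for Pdlim3. Srf had 69.1 CPM with Ad-Cre and 88.9 CPM with Ad-GFP in cardiac fibroblasts, 123 CPM with Ad-Cre and 94.7 CPM with Ad-GFP in lung fibroblasts, and 50.6 CPM with Ad-Cre and 66.6 CPM with Ad-GFP in tail tip fibroblasts. Srf was higher in lung than in tail tip (log2 0.91 ± 0.22, adjusted p = 0.011), a call lost without the lung Ad-Cre (adjusted p = 0.0909) or the tail tip Ad-Cre library (0.118). In cardiac against lung it was not called (log2 -0.48 ± 0.22, adjusted p = 0.123).

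Where the 3 pairs of libraries of a member did not overlap, their order is given with its share of all tested genes. In 7 of the 36 members tested, cardiac was highest and lung lowest (Csrp1, Pdlim5, Tpm2, Tpm4, Tagln, Actn1 and Acta2), an order that 5.77% of all tested genes had. In another 7 lung was highest and tail tip lowest (Flna, Cnn3, Cnn2, Tpm1, Myh10, Smtn and Srf), against 11.8% of all genes. Lung was highest and cardiac lowest for Actg2 and Cnn1, against 5.57% of all genes, and tail tip highest and cardiac lowest for Csrp2 and Mylk, against 5.14%. Acta1 had tail tip highest and lung lowest, an order of 13.8% of all genes, and Cald1 had cardiac highest and tail tip lowest, against 3.83%. The pericyte sum above has the order of the first 7, cardiac above tail tip above lung, and so does Cspg4. Other pericyte genes had other orders: Rgs5 was highest in lung, and Mcam was higher in lung than in tail tip (log2 3.99 ± 0.18, adjusted p = 8.86e-06). Notch3 was not called between cardiac and tail tip (log2 0.09 ± 0.16, adjusted p = 0.711). Their part in the members' values was not tested.

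The comparison of the libraries labelled Ad-Cre with those labelled Ad-GFP asked which members moved in common over the 3 origins. None of the 36 was called, and none of the 18143 genes was (0.0% called), by edgeR, and DESeq2 and limma-voom called no member. At an unadjusted p under 0.05 there were 2 members, Acta1 (log2 difference 0.99 ± 0.24) and Des (1.02 ± 0.36), beside 367 genes in all (2.02%). The smallest adjusted p of a member was 0.9996. Of the 36 differences, 15 were positive and 21 negative, and the median was -0.05, against 0.00 for all genes.

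Acta1 was higher in the Ad-Cre library of each origin, by unequal amounts, and Des was higher in that of cardiac and lung fibroblasts. The ratio of Ad-Cre to Ad-GFP for Acta1 was 2.46 in cardiac, 2.03 in lung and 1.60 in tail tip fibroblasts. For Des it was 3.28 in cardiac (95% counting interval 2.78 to 3.90) and 2.03 in lung fibroblasts (1.25 to 3.35). In tail tip fibroblasts the Des ratio was 1.09, and its interval (0.682 to 1.76) includes 1. With a library left out in turn, the smallest adjusted p was 0.0861 for Acta1 and 0.198 for Des.

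Within an origin there is 1 library per virus, so the ratios below compare 2 libraries, not conditions, and their intervals cover counting error only. In the cardiac pair, 3 members were at least 2-fold higher in the Ad-Cre library (Acta1, Des and Synpo2), against 11.3% of all genes, and 2 at least 2-fold lower (Actg2 and Myh11), against 9.07%. The Synpo2 ratio was 2.09 (1.67 to 2.63), that of Actg2 was 0.476 (0.417 to 0.542) and that of Myh11 was 0.382 (0.294 to 0.493). Most other members were lower too: the ratio was below 1 for 28 of 36, against 49.3% of all genes, and the median log2 ratio was -0.33, against 0.00 for all genes. At least 1.5-fold lower were 11 members, Actg2 and Myh11 with Tagln2, Lmod1, Vim, Tpm2, Pdlim3, Tagln, Cnn1, Pdlim7 and Actn1, against 17.4% of all genes. Vim, at 3553 CPM with Ad-Cre and 6667 CPM with Ad-GFP, had a ratio of 0.533, Actn1 0.540 and Tagln2 0.546. Acta2 had a ratio of 0.757 and Myl6, the other way, stood at 682 CPM with Ad-Cre and 536 CPM with Ad-GFP.

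Other lists differed in the same cardiac pair. The summed fibroblast markers were 11340 CPM with Ad-Cre and 15740 CPM with Ad-GFP, and most of this was Col1a1 and Col1a2. Against the sum, Pdgfra was at 408 CPM with Ad-Cre and 268 CPM with Ad-GFP. Pdgfrb was at 416 CPM with Ad-Cre and 263 CPM with Ad-GFP, and Ddr2 at 506 CPM with Ad-Cre and 444 CPM with Ad-GFP. The other fibroblast markers were lower with Ad-Cre. The macrophage and leukocyte markers were at 650 CPM with Ad-Cre and 1081 CPM with Ad-GFP, and the epithelial markers at 120 CPM with Ad-Cre and 14.2 CPM with Ad-GFP. Mesothelial markers were at 135 CPM with Ad-Cre and 63.0 CPM with Ad-GFP. Among these, Lrrn4 went the other way, at 9.43 CPM with Ad-Cre and 32.2 CPM with Ad-GFP, and Wt1 was at 8.84 CPM with Ad-Cre and 9.44 CPM with Ad-GFP. Skeletal muscle markers were at 12.2 CPM with Ad-Cre and 7.13 CPM with Ad-GFP, and cardiomyocyte markers at 64.7 CPM with Ad-Cre and 86.8 CPM with Ad-GFP. Single cardiomyocyte genes went both ways. Myh6 had 24 reads with Ad-Cre and 0 with Ad-GFP, Myh7 had 40 and 2, and Myl7 had 57 and 9. By contrast, Tnnt2 had 1578 reads with Ad-Cre and 2442 with Ad-GFP, Tnnc1 had 72 and 142, and Ttn had 75 and 113. The part of these in the ratios of the members was not tested.

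The lung and tail tip pairs were closer. These counts rest on log2 ratios with a prior count of 2 added, which draws ratios of few reads towards 1. In lung, 3 members were then at least 2-fold higher with Ad-Cre (Actc1, Pdlim3 and Myocd, all from few reads), against 4.87% of all genes, and none was 2-fold lower, against 2.82%. With a prior count of 0.5 the number higher was 5, since Acta1 and Des, whose plain ratio was 2.03, then counted too. The ratio was below 1 for 7 of 36 members, against 44.8% of all genes, and the median log2 ratio was 0.19, against 0.03 for all genes. In tail tip, none counted as 2-fold in either direction, against 1.53% of all genes higher and 1.58% lower. With a prior count of 0.5 it was 1 lower, Pdlim3, at 2 reads with Ad-Cre and 5 with Ad-GFP. There the median log2 ratio was 0.06, against 0.01 for all genes. The SD of the members' log2 ratios was 0.638 in cardiac, 0.409 in lung and 0.245 in tail tip fibroblasts, against 1.01, 0.535 and 0.392 over all genes in the same origins.

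**Figure D5:**
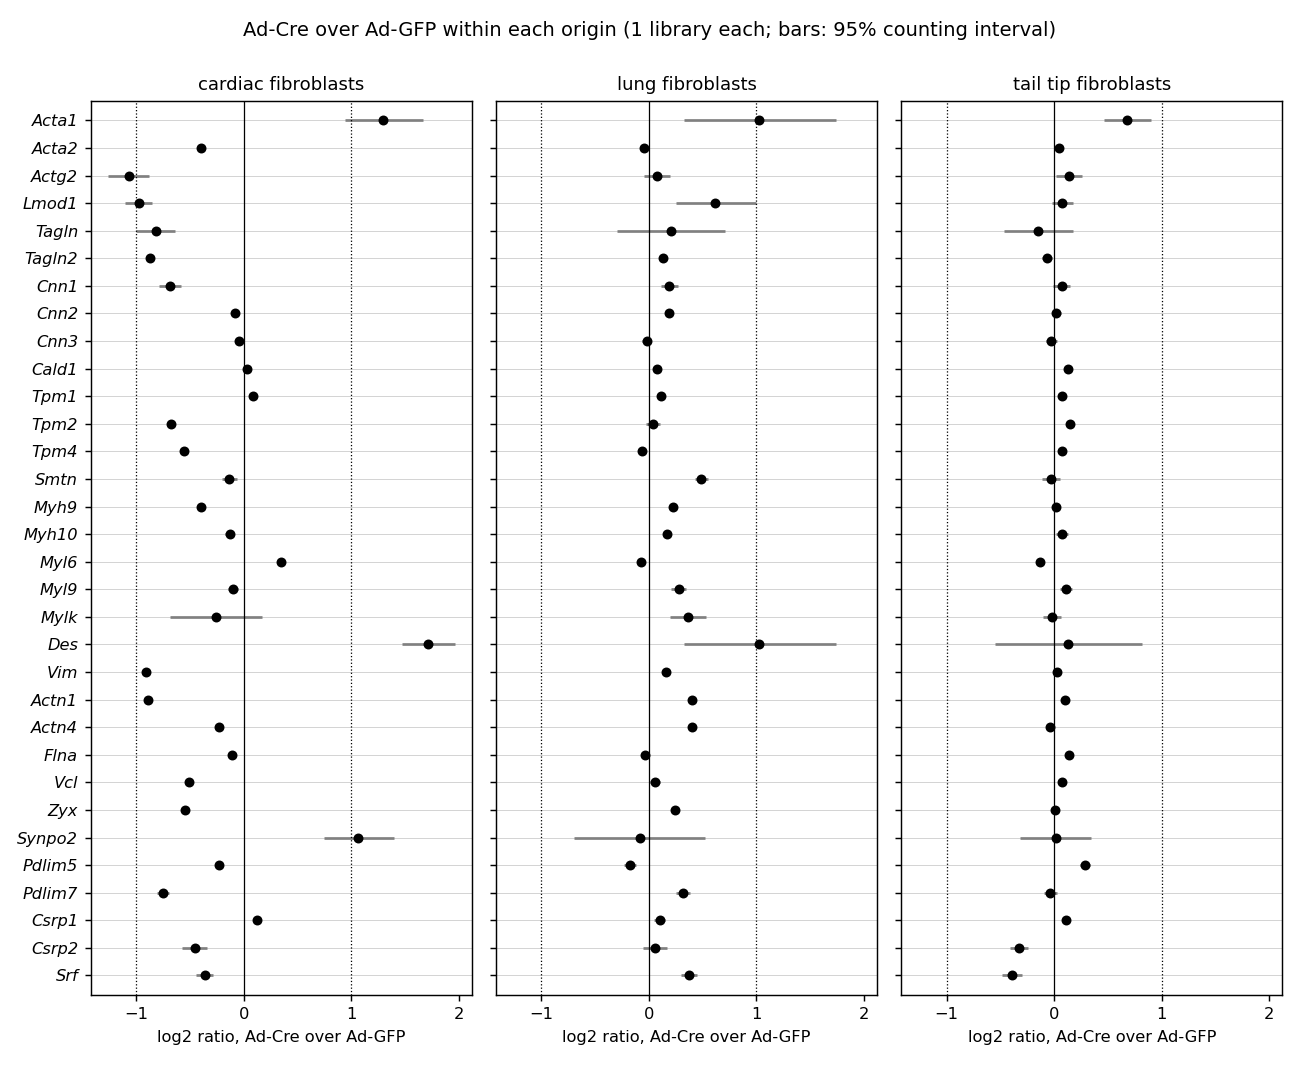
Log2 ratio of Ad-Cre over Ad-GFP within each origin for the 32 members with at least 20 reads in 1 library of every origin, with dotted lines at 2-fold. Cardiac values lie mostly below 0 with Acta1, Des and Synpo2 above the upper line, and the tail tip values all lie within the lines.

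Genes that work with the members were taken from lists of pathway genes. The SRF partners and related genes, including Srf and Myocd, had 3 of 13 higher and 2 lower in cardiac than in lung (20.8% and 17.6% of all genes), 5 higher and 2 lower in cardiac than in tail tip (15.5% and 18.0%), and 5 higher and 3 lower in lung than in tail tip fibroblasts (22.3% and 28.2%). Their median log2 differences were -0.13, 0.43 and 0.38 in these comparisons, against -0.01, -0.06 and -0.06 for all genes. Without the members Srf and Myocd, 2 of 11 were higher and 2 lower in cardiac than in lung. In cardiac against tail tip 4 were then higher and 2 lower, and in lung against tail tip 4 higher and 3 lower. The medians of these 11 were -0.13, 0.06 and 0.38, so the cardiac against tail tip median was nearer that of all genes. The MRTF gene Mrtfb, a coactivator of SRF, was higher in cardiac than in lung (log2 0.70 ± 0.15, adjusted p = 0.0102) and lower in lung than in tail tip (log2 -1.08 ± 0.15, adjusted p = 0.000926). Mrtfa was lower in cardiac than in tail tip (log2 -0.59 ± 0.18, adjusted p = 0.0415) and not called against lung. Fhl1, a LIM protein of muscle in the same list, had 305 CPM with Ad-Cre and 463 CPM with Ad-GFP in cardiac fibroblasts, 0.663 CPM with Ad-Cre and 0.618 CPM with Ad-GFP in lung fibroblasts, and 39.2 CPM with Ad-Cre and 30.2 CPM with Ad-GFP in tail tip fibroblasts. The cardiac level of Fhl1 was far above that of lung (log2 9.21 ± 0.35, adjusted p = 1.25e-05) and above that of tail tip (log2 3.45 ± 0.25, adjusted p = 0.000105). Fhl2, a LIM protein that binds SRF, was higher than in tail tip both in cardiac (log2 1.72 ± 0.17, adjusted p = 0.000333) and in lung cells (log2 1.27 ± 0.16, adjusted p = 0.00067).

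Other actomyosin and adhesion genes, none of them members, had 15 of 30 tested higher and 3 lower in cardiac than in lung (20.8% and 17.6% of all genes), 15 higher and 4 lower in cardiac than in tail tip (15.5% and 18.0%), and 4 higher and 11 lower in lung than in tail tip cells (22.3% and 28.2%). The medians were 0.45, 0.50 and -0.09. Tns1, tensin, which links integrins to actin, was at 1194 CPM with Ad-Cre and 1111 CPM with Ad-GFP in cardiac cells, above lung (log2 2.17 ± 0.15, adjusted p = 8.9e-05) and tail tip (log2 2.39 ± 0.15, adjusted p = 6.36e-05). Enah, which protects growing filament ends, ran the other way, lower in cardiac than in lung (log2 -2.02 ± 0.19, adjusted p = 0.000317) and than in tail tip (log2 -2.68 ± 0.20, adjusted p = 0.000103). Pdlim4, a relative of Pdlim3 and Pdlim5, had 1027 reads with Ad-Cre and 1164 with Ad-GFP in tail tip fibroblasts. It had 3 with Ad-Cre and 7 with Ad-GFP in cardiac, and 8 with Ad-Cre and 9 with Ad-GFP in lung fibroblasts. No test is given for Pdlim4, because it entered the tests mainly through the tail tip libraries.

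Matrix genes of the myofibroblast list had 10 of 17 higher and 2 lower in cardiac than in lung (20.8% and 17.6% of all genes), 5 higher and 7 lower in cardiac than in tail tip (15.5% and 18.0%), and none higher and 12 lower in lung than in tail tip cells (22.3% and 28.2%). The medians were 1.39, -0.54 and -1.79. Postn, periostin, was higher in cardiac than in lung (log2 7.35 ± 0.27, adjusted p = 1.25e-05) and than in tail tip (log2 2.0 ± 0.21, adjusted p = 0.000498). Ccn2, a matrix protein induced by TGF-beta and a known target of mechanical signalling, was higher in cardiac than in lung (log2 2.43 ± 0.26, adjusted p = 0.000503) and than in tail tip (log2 2.81 ± 0.26, adjusted p = 0.000275), while lung and tail tip were not called different (log2 0.39 ± 0.24, adjusted p = 0.225). Lox, which cross-links collagen, was higher in cardiac than in lung (log2 2.56 ± 0.18, adjusted p = 8.9e-05) and lower in cardiac than in tail tip (log2 -2.55 ± 0.18, adjusted p = 9.04e-05).

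Of 14 smooth muscle markers, 10 are members. Of the others, Ldb3, a Z-disc protein, was higher in cardiac than in lung (log2 2.79 ± 0.23, adjusted p = 0.000185) and than in tail tip (log2 1.36 ± 0.22, adjusted p = 0.00341). Kcnmb1 had 306 reads with Ad-Cre and 201 with Ad-GFP in cardiac, 0 and 0 in lung, and 9 and 16 in tail tip fibroblasts. Casq2 had 259 with Ad-Cre and 171 with Ad-GFP in cardiac, 4 and 7 in lung, and 16 and 5 in tail tip fibroblasts. No test is given for Kcnmb1 and Casq2, which entered the tests mainly through the cardiac libraries. Of the pericyte genes, Mcam was higher in cardiac than in lung (log2 3.29 ± 0.16, adjusted p = 2.19e-05) and than in tail tip (log2 7.28 ± 0.20, adjusted p = 1.21e-05), and Notch3 was higher in cardiac than in lung (log2 5.81 ± 0.22, adjusted p = 1.25e-05) but was not called against tail tip (log2 0.09 ± 0.16, adjusted p = 0.711). Rgs5 went the other way, lower in cardiac than in lung (log2 -4.46 ± 1.09, adjusted p = 0.0171), with 27 reads with Ad-Cre and 0 with Ad-GFP in cardiac, against 148 with Ad-Cre and 317 with Ad-GFP in lung fibroblasts.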

How the data were processed

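Values are whole-number read counts per gene in 6 libraries, deposited by the authors without normalisation. Per the submitters' processing notes, STAR 2.0.7 and the mm39 build were used. No source used here gives the counting tool, annotation release, strand setting or filters. The labels name a matrix whose title has another subject than the deposited table, and columns were matched by their names. Columns of other samples in the table numbered 0.

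The members, the pathway and marker lists and the tests were chosen with earlier results of these data known. Tests used edgeR 4.0.16 (R 4.3.3; robust quasi-likelihood F-test, two-sided, TMM factors, filterByExpr with a minimum count of 10, origin plus virus as terms, all 6 libraries in 1 fit, 2 residual degrees of freedom, common dispersion 0.0455). Benjamini-Hochberg adjustment covered all 18143 genes, with a threshold of 0.05. With 1 library per group, the spread is the virus effect that differs between origins, and no label says that the cultures were separate. The script was tested on simulated data. The result of 1 pathway list is not reported here.

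Ratios within an origin have exact conditional binomial 95% intervals, which cover counting error only, and log2 ratios and their fold counts use a prior count of 2. Low genes such as Myocd, Pdlim3, Actc1 and Actn2 have ratios of summed reads. The 1.5-fold counts were added after seeing the data. RPKM was computed here from the counts, with exon lengths and symbols from GENCODE M21 (GRCm38), so no coordinates of counted genes are given. Promoter sequences are RefSeq's, build GRCm38.p6.

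All members are accounted for. Full values were given by rule to members called at 4-fold or more between origins, to those 2-fold apart within an origin with at least 50 reads, and to Acta2, Tagln, Cnn1, Myh11, Des, Vim, Myocd and Srf; other members shown in full were added to it. Of each list, the rule was to name up to 4 genes per comparison, those of largest fold change with a mean of at least 1 CPM. Genes outside this rule were also named, such as Mrtfa, Ldb3 and the cardiomyocyte, fibroblast and mesothelial genes given for the cardiac pair. Myf5 and Tnnc2 were named for their 0 reads. Alternatives were DESeq2 1.42.0, limma-voom (limma 3.58.1), other scalings and filters, a model without the virus term, each library left out, and a prior count of 0.5.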

Additional observations from a re-analysis of the deposited data

Results flagged for a closer look

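In 2 members the ratio of Ad-Cre to Ad-GFP was at least 1.5-fold, with a counting interval that excludes 1, and ran in opposite directions in a pair of origins. Lmod1, leiomodin, had a ratio of 0.509 in cardiac fibroblasts and 1.53 in lung fibroblasts, and it was 1.05 in tail tip fibroblasts. Myh11, smooth muscle myosin heavy chain, had a ratio of 0.382 in cardiac fibroblasts and 1.54 in tail tip fibroblasts, and it was 1.46 in lung fibroblasts. With 1 library per group the difference between origins was not tested. Pdlim3 had a ratio of 0.575 in cardiac and 4.54 in lung fibroblasts, but the lung value rests on 4 reads with Ad-Cre and 1 with Ad-GFP, and its interval (0.450 to 224) includes 1.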

How the results depend on the processing

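No pairing by replicate number was possible because each group holds 1 library. The comparison of the viruses is made within origin, since origin is a term of the model. Of the 62 member calls between origins, 33 held under every alternative run. Of 849 recomputed member values, 0 reversed and 60 lost the threshold, 56 of them when a library was left out, which leaves fewer samples, and 4 otherwise (Csrp2 in 3 settings and Acta1 in 1).

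With a library left out, the number of members lower in cardiac than in lung ranged from 4 to 12, and the number higher from 13 to 22. In cardiac against tail tip cells the number higher ranged from 7 to 23 and the number lower from 2 to 10. In lung against tail tip cells the number higher ranged from 4 to 13 and the number lower from 7 to 15. For Ad-Cre against Ad-GFP it stayed at 0. Without the cardiac pair, an alternative added after seeing the data, 13 members were higher and 15 lower in lung than in tail tip cells.

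With library totals in place of TMM factors, 1 member was at least 2-fold lower with Ad-Cre in cardiac cells, in place of 2, and the median of all genes in cardiac against tail tip was -0.11, in place of -0.06. With a prior count of 0.5, 5 members were at least 2-fold higher in lung, in place of 3, and 1 at least 2-fold lower in tail tip, in place of 0. Depth limits Myocd, Pdlim3, Actc1 and Actn2, which had few reads outside the cardiac libraries.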
